A study of Homo sapiens with 4 samples.

Results

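Nuclear receptors are transcription factors, most of which bind small lipid-soluble ligands, and 35 of their genes were followed in the human hepatocellular carcinoma line PLC/PRF/5 after knockdown of USP22. The 35 genes were found in the table by their symbols. Of these, 28 had at least 1 row in the deposited table, which lists transcripts by RefSeq mRNA accession, and the row with the highest summed count stood for the gene. The test across the whole table included 26 of the 28, and the rows of RXRB and THRB were removed by its filter on low counts. NR1D2, NR1I2, NR1I3, RARB, RORA, RXRG and VDR were not analysed here. The whole table held 14540 transcripts of 12153 genes.

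One group was PLC/PRF/5 with lentiviral interference against USP22 (2 libraries, from here on knockdown) and the other PLC/PRF/5 control cells (2 libraries). USP22 is a ubiquitin-specific protease and part of the SAGA transcriptional coactivator complex. Both groups were held at 1% oxygen with 5% carbon dioxide for 48 h before polyadenylated RNA was sequenced, so every value below is from hypoxic cells and no normoxic library enters. Growth was in high-glucose DMEM. Which virus the control cells received, the hairpin sequence, and whether the 2 libraries of a group came from separate transductions are not stated in the labels, so p-values measure the spread between these libraries, which may be technical.

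A nuclear receptor typically carries a DNA-binding domain with zinc fingers and a ligand-binding domain whose shape changes when ligand binds. That change swaps corepressors for coactivators on the receptor's target genes. Many receptors of liver pair with a retinoid X receptor, and together they govern bile acid, cholesterol, fatty acid and drug metabolism. Others, such as the NR4A receptors, have no established physiological ligand and are governed largely by how much of them is made.

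USP22 had 5438 and 7683 counts in the knockdown libraries, against 46513 and 41607 in the control libraries. The groups did not overlap, and the transcript fell to 403 ± 62.1 CPM (counts scaled to library size) with knockdown, against 2755 ± 257 CPM in control cells (mean ± SD, n = 2 each), which left 14.6%. Its log2 fold change, knockdown over control, was -2.77 ± 0.17 (standard error; edgeR quasi-likelihood test, Benjamini-Hochberg adjusted p = 1.36e-06). Library totals were 15027209 and 17194929 counts with knockdown, against 15621574 and 16536639 in control cells. All 9 hepatocyte markers looked for had a row, and their summed level was 44814 and 35268 CPM with knockdown, against 30225 and 28412 CPM in control cells. APOB (apolipoprotein B), named here after its values were seen, held most of that difference, with 27525 and 16630 CPM with knockdown, against 11626 and 8796 CPM in control cells. Without APOB the sum was 17289 and 18638 CPM with knockdown, against 18599 and 19616 CPM in control cells, and 6 of the 9 markers had a negative log2 fold change. TF (transferrin) held most of this remaining sum, with 14063 and 15353 CPM with knockdown, against 16362 and 17025 CPM in control cells. The sum therefore says little of the other markers. Of 21 markers of stellate cells, endothelium, leukocytes and cholangiocytes, 13 had a row and 11 were tested. Their summed level was 610 and 344 CPM with knockdown, against 470 and 578 CPM in control cells. LYZ (lysozyme) held most of that, with 359 and 194 CPM with knockdown, against 274 and 325 CPM in control cells. TF and LYZ were named after their values were seen. In such bulk RNA fewer cells expressing a gene and less RNA per cell cannot be told apart.

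Among the 26 tested receptors, NR2F2 and NR1H4 were higher after knockdown, NR4A3 was lower, and 23 did not pass the threshold, an adjusted p under 0.05 over all 12337 tested transcripts. The 3 called receptors are 11.5% of those tested. Of all tested transcripts 18.7% were called in either direction, 8.49% as higher and 10.2% as lower with knockdown. The median log2 fold change was 0.13 over the receptors and 0.00 over all tested transcripts. The 2 knockdown libraries lay above both control libraries for 10 receptors and below both for 3, and over all tested transcripts for 29.3% and 30.3% (59.6% without overlap in either direction). At an unadjusted p under 0.05, 6 of the 26 receptors passed, against 31.6% of all tested transcripts.

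**Figure D1:**
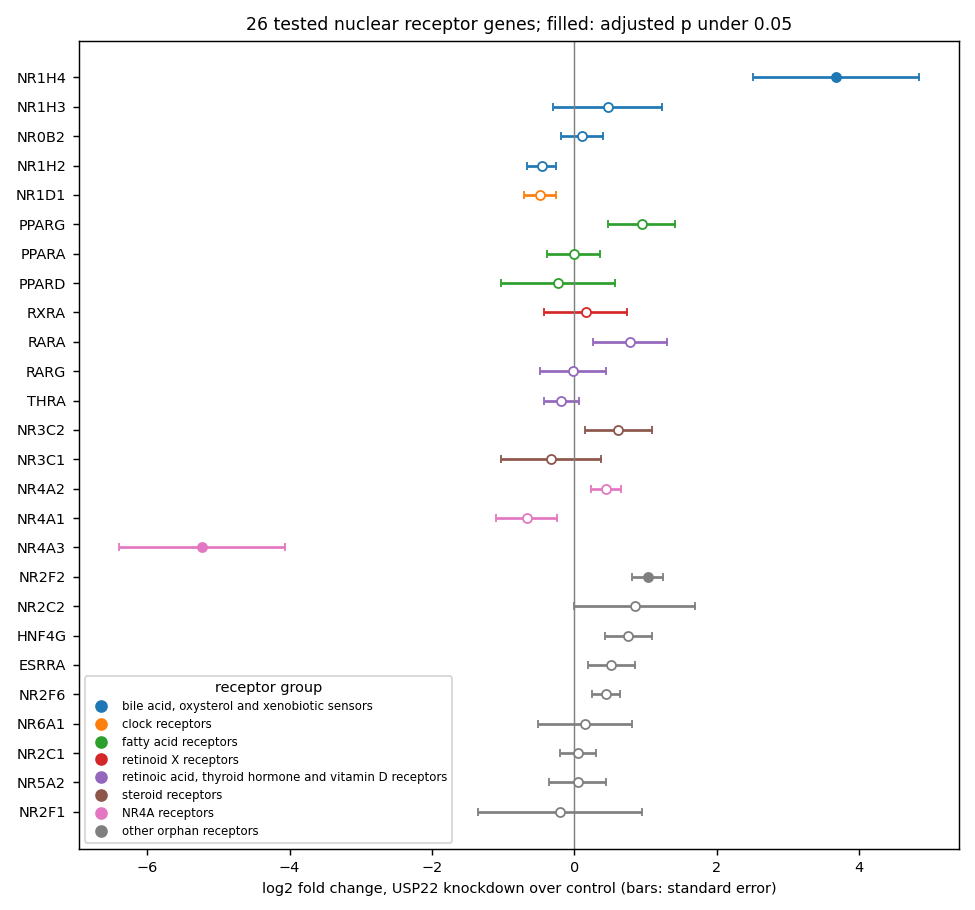
Log2 fold change of the 26 tested nuclear receptor transcripts, USP22 knockdown over control, with bars of 1 standard error; colours give the receptor group and filled points an adjusted p under 0.05. NR1H4 at 3.68 and NR2F2 at 1.03 are the filled points to the right of 0, and NR4A3 at -5.23 is the one to the left.

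How much each receptor's row can show depends on its depth. For the 8 receptors that averaged at least 10 CPM, the ends of the 95% confidence interval lay a median of 0.49 from the log2 fold change, and for the 18 under 10 CPM a median of 1.19. Each of these 18 has several RefSeq mRNA accessions, but so do NR1H2, NR4A2, NR2C1, NR2F2 and THRA among the 8. In the whole table the median row total was 2588 counts where a gene has 1 accession, 311.5 where it has 2 and 118 where there were 3 or more, so a low row need not give the level of the whole gene. Of all tested transcripts that averaged at least 10 CPM 27.0% were called, and of those under 10 CPM 11.5%.

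**Figure D2:**
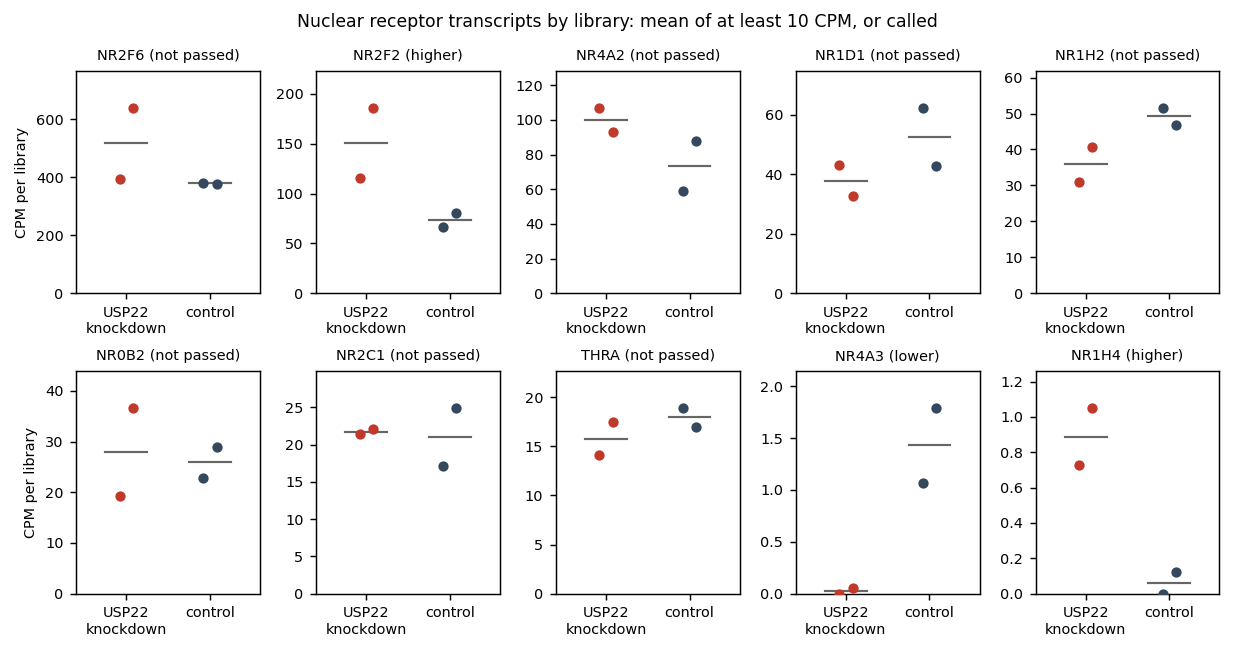
CPM in each library (points) and the mean of each group (lines) for the 8 receptor transcripts that averaged 10 CPM or more and for NR4A3 and NR1H4, with knockdown on the left of each panel. The groups stand clear of each other in the panels of NR2F2, NR1H2, NR4A3 and NR1H4 and, by a small margin for 1 knockdown library each, NR4A2 and NR2F6.

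Levels per length order the well-covered receptors differently from their raw levels. Per kilobase of transcript, NR2F6 was the highest in both groups, with 215 CPM per kb in knockdown and 158 CPM per kb in control cells. NR4A2 had 28.9 CPM per kb with knockdown and 21.2 CPM per kb in control cells. NR2F2 had 28.6 CPM per kb with knockdown and 14.0 CPM per kb in control cells, and NR0B2 24.2 with knockdown and 22.4 in control cells. NR1H2 had 17.9 CPM per kb with knockdown and 24.7 CPM per kb in control cells, and NR1D1 13.6 with knockdown and 19.0 in control cells. NR2C1 and THRA had lower levels, at 5.25 and 3.23 CPM per kb with knockdown and 5.07 and 3.67 CPM per kb in control cells. These are levels of single accessions and exclude whatever other isoforms hold.

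The bile acid, oxysterol and xenobiotic sensors were represented by 4 tested genes, of which 1 was higher with knockdown and 3 did not pass. NR1H4 encodes FXR, the bile acid receptor. Its row (NM_001206977.1, 1 of 6 accessions) had 11 and 18 counts with knockdown, against 0 and 2 counts in control cells. All 4 counts are small, and a count of 0 still allows up to 3 counts. The row passed the filter on low counts only through the knockdown libraries, so the lack of overlap between groups is no added support. The fitted log2 fold change was 3.68 ± 1.17 (95% confidence interval 1.16 to 6.19, adjusted p = 0.0428), and the ratio of pooled counts, scaled by library totals, was 14.5 with an exact counting interval of 3.66 to 125. The call was lost without knockdown replicate 1 (adjusted p = 0.0644), without knockdown replicate 2 (0.204) and without control replicate 1 (0.164, log2 fold change 2.77), with no filter on low counts (0.079) and in DESeq2 (0.105). Over 10 alternatives the adjusted p ran from 0.0162 to 0.204, and without control replicate 2, on 0 counts in the control library left, the fitted log2 fold change was 6.85. In the authors' deposited table its q-value is 0.0501.

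The oxysterol receptor NR1H2 (LXR-beta) had 31.1 and 40.6 CPM with knockdown, against 51.6 and 46.9 CPM in control cells. Both knockdown libraries were below both control libraries, yet the log2 fold change of -0.46 ± 0.21 did not pass (adjusted p = 0.156). NR1H3 (LXR-alpha) was read from 1 of its 8 accessions, with 14 and 14 counts in knockdown libraries, against 11 and 9 in control libraries (log2 fold change 0.47 ± 0.77, adjusted p = 0.732). NR0B2 encodes SHP, an atypical receptor without a DNA-binding domain that FXR induces and that represses bile acid synthesis. It had 19.3 and 36.6 CPM with knockdown, against 22.9 and 28.9 CPM in control cells, so the control libraries lay between the knockdown libraries. Its log2 fold change was 0.11 ± 0.29 (95% confidence interval -0.51 to 0.74, adjusted p = 0.833).

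NR1D1 encodes REV-ERB-alpha, a heme-binding repressor of the circadian clock, and was the clock receptor measured. It had 43.0 and 32.6 CPM with knockdown, against 62.3 and 42.9 CPM in control cells, and the groups overlapped by a narrow margin. The log2 fold change was -0.48 ± 0.23 (adjusted p = 0.177), and without knockdown replicate 1 it was -0.67 (adjusted p = 0.0366; 0.0366 to 0.775 over 11 alternatives). The libraries do not keep the strand, and NR1D1 overlaps THRA on the opposite strand, so reads in the shared stretch cannot be assigned. Protein-coding genes on the opposite strand also overlap the gene spans of NR1H2, NR1H3, NR0B2, ESRRA, NR2C2 and RXRB, and MED24 that of THRA. Antisense RNAs overlap those of NR1H2, NR2C2, NR2F1, NR2F2, NR3C2, NR6A1, RARA and THRB. Spans include introns and overlap of exons was not looked at, so how far these counts are uncertain in the same way is not known. THRA, which encodes thyroid hormone receptor alpha, had 14.1 and 17.5 CPM with knockdown, against 18.9 and 17.0 CPM in control cells (log2 fold change -0.18 ± 0.25, adjusted p = 0.673).

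The fatty acid receptors gave no call among 3 tested genes. PPARA, which drives fatty acid oxidation in liver, had 86 and 69 counts with knockdown, against 85 and 71 in control cells, and a log2 fold change of -0.01 ± 0.37 (95% confidence interval -0.80 to 0.78). PPARG, the adipogenic member, had 41 and 74 counts with knockdown, against 29 and 29 counts in control cells. Both knockdown libraries of PPARG were above both control libraries, and its log2 fold change of 0.95 ± 0.47 did not pass (adjusted p = 0.184). PPARD had 8 and 11 counts with knockdown and 10 and 12 in control cells (log2 fold change -0.23 ± 0.80). Their common partner RXRA had 27 and 39 counts with knockdown, against 41 and 17 in control cells (log2 fold change 0.16 ± 0.58, adjusted p = 0.887), and RXRB had 5 and 3 counts in the knockdown libraries and 5 and 3 in the control libraries.

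RARA, the retinoic acid receptor alpha, was the receptor whose rows moved apart. Its row with the most counts (NM_001024809.3) had 47 and 53 counts with knockdown, against 40 and 17 in control cells, and did not pass (log2 fold change 0.79 ± 0.52, adjusted p = 0.33). Its other row (NM_000964.3) had 1 and 2 counts with knockdown, against 21 and 12 in control cells, and passed the filter only through the control libraries. The second row was lower with knockdown (log2 fold change -3.38 ± 1.01, adjusted p = 0.0335), and its pooled count ratio was 0.0907 with an exact interval of 0.0178 to 0.289. In the authors' deposited table the q-value of that row is 0.0379. A test of the difference between the rows, edgeR's diffSpliceDGE, which was added after the values were seen, gave an adjusted p of 0.0455 over 1334 genes with several tested rows, of which 1.72% passed.

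The RARA calls depended on single libraries. For the second row the call was lost without knockdown replicate 1 (adjusted p = 0.155), without knockdown replicate 2 (0.119), without control replicate 1 (0.147), with no filter (0.064), in DESeq2 (0.0862) and in limma-voom (0.084), in a range of 0.0137 to 0.155 over 9 alternatives. The difference between the rows was lost without knockdown replicate 1 (adjusted p = 0.331), without knockdown replicate 2 (0.432), without control replicate 1 (0.0592) and with no filter (0.0885), in a range of 0.0118 to 0.432 over 7 alternatives. RARG, the paralog found mostly in skin, had 43 and 38 counts with knockdown and 38 and 44 in control cells in its main row (log2 fold change -0.02 ± 0.46), and the difference between its 2 tested rows did not pass (adjusted p = 0.449). THRB had 9 and 6 counts with knockdown, against 4 and 3 in control cells.

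The 2 RARA rows start at different promoters, which are shown because their counts moved apart. Both are RefSeq windows of build GRCh38.p14 on the + strand, 250 bases before and 50 bases from the start, chr17:40341916-40342215 for the first and chr17:40308930-40309229 for the second. The window starts lie 197 and 14 bases from the starts of these transcripts in GENCODE. Capitals mark any match on either strand to AGGTCA (the half-site that many nuclear receptors bind), TGACG (the core of cyclic AMP response elements) or ACGTG (a form of the core that hypoxia-inducible factors bind). Other forms of these motifs were not looked for.
RARA NM_001024809.3: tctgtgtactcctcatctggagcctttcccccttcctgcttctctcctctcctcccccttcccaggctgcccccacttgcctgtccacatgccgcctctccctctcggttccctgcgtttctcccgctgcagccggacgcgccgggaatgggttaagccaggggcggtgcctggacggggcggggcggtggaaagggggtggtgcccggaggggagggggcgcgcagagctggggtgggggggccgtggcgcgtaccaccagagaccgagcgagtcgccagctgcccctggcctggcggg
RARA NM_000964.3: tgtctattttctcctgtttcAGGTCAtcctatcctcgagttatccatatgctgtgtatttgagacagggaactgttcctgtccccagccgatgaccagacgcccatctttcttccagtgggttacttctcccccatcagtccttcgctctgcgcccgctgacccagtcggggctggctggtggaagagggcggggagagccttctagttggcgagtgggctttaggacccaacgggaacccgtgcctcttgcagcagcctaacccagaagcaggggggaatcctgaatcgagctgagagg
The second window holds 1 AGGTCA and the first none of the 3 motifs. AGGTCA was in 13.8% of all 35116 RefSeq promoter windows and in 13.7% of the 51 windows of 24 receptor genes, so a match of this kind is common. No match says only that these letters are not in this window.

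**Figure D3:**
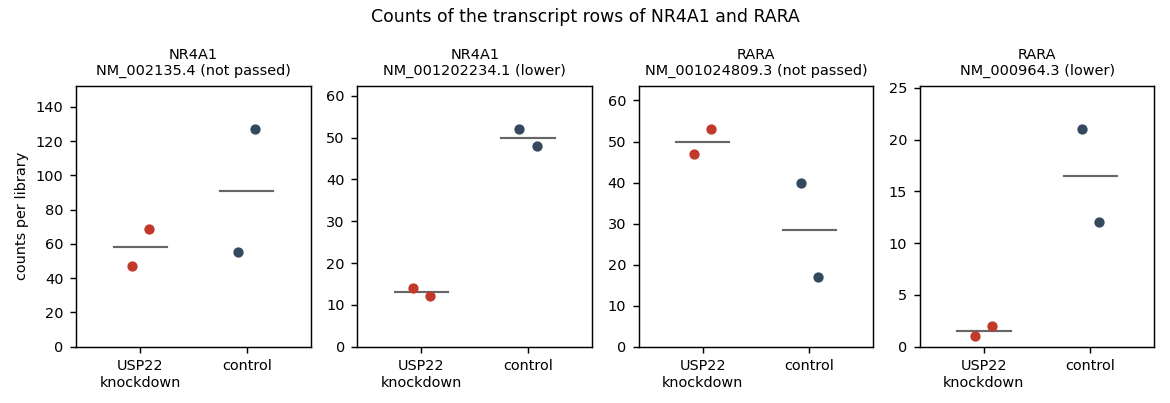
Counts per library (points) and group means (lines) of both tested rows of NR4A1 and of RARA, with knockdown on the left of each panel. The row NM_001202234.1 of NR4A1 lies at 12 to 14 counts with knockdown and 48 to 52 in control cells, and the row NM_000964.3 of RARA at 1 to 2 with knockdown and 12 to 21 in control cells; the main row of each gene was not called.

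The steroid receptors NR3C1 (glucocorticoid receptor) and NR3C2 (mineralocorticoid receptor) gave no call. NR3C1 has 21 accessions, of which 3 had rows, and its main row had 13 and 16 counts with knockdown, against 19 and 17 in control cells (log2 fold change -0.33 ± 0.70, adjusted p = 0.8). The other tested rows of NR3C1 had log2 fold changes of 0.45 and 0.41, with adjusted p of 0.752 and 0.823. NR3C2 had 37 and 62 counts with knockdown, against 31 and 32 in control cells (log2 fold change 0.62 ± 0.47, adjusted p = 0.407).

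Of the NR4A receptors, which are immediate-early orphan receptors induced by many stimuli, NR4A3 was lower with knockdown. NR4A3 (NOR-1; row NM_173200.2) had 0 and 1 counts with knockdown, against 17 and 29 counts in control cells. With a single count over both knockdown libraries the transcript was close to undetected there. The row passed the filter on low counts only through the control libraries, so groups without overlap are no added support for the call. The pooled count ratio was 0.0217 with an exact counting interval of 0.000538 to 0.127, and the fitted log2 fold change was -5.23 ± 1.17 (95% confidence interval -7.75 to -2.71, adjusted p = 0.00741). The call held in all 10 alternatives that gave a value, with an adjusted p of 0.000579 to 0.0274, while the fitted value was -4.43 without knockdown replicate 1 and -7.50 without knockdown replicate 2, which leaves 0 counts with knockdown. For this row the authors' deposited table lists -5.52 (log2) with a q-value of 0.00712.

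NR4A1 (NUR77) was lower in 1 of its 2 tested rows. The row NM_001202234.1 had 14 and 12 counts with knockdown, against 52 and 48 in control cells, with no overlap. Its log2 fold change was -1.94 ± 0.55 (adjusted p = 0.0264), and the call was lost without knockdown replicate 2 (adjusted p = 0.106) and without control replicate 1 (0.0587), in a range of 0.00847 to 0.106 over 9 alternatives. The main row, NM_002135.4, had 47 and 69 counts with knockdown, against 55 and 127 in control cells, and did not pass (log2 fold change -0.67 ± 0.43, adjusted p = 0.319); without control replicate 2 it was 0.04. The difference between the rows did not pass (adjusted p = 0.44), and with both rows summed the log2 fold change was -0.99 (adjusted p = 0.0599).

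NR4A2 (NURR1), the NR4A receptor with a row above 10 CPM, did not pass. It had 107 and 93.0 CPM with knockdown, against 58.9 and 88.0 CPM in control cells. Both knockdown libraries were above both control libraries, one of them by a small margin, and the log2 fold change was 0.45 ± 0.21 (95% confidence interval -0.00 to 0.90, adjusted p = 0.161). Without knockdown replicate 2 it passed (log2 fold change 0.56, adjusted p = 0.0451), in a range of adjusted p of 0.016 to 0.742 over 11 alternatives.

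The promoter windows of the 2 NR4A rows that were lower are shown because these are the NR4A rows that were called. They are RefSeq windows of the same build, length and strand, chr9:99821635-99821934 for NR4A3 and chr12:52037465-52037764 for NR4A1, and the window starts lie 30 and 0 bases from the starts of the counted transcripts. Capitals mark the same 3 motifs.
NR4A3 NM_173200.2: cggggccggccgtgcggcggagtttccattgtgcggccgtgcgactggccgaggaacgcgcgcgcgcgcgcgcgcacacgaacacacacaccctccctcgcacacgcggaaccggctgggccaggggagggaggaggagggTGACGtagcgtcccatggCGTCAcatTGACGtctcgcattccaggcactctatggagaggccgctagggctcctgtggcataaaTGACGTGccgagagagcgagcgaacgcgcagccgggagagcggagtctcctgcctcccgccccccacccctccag
NR4A1 NM_001202234.1: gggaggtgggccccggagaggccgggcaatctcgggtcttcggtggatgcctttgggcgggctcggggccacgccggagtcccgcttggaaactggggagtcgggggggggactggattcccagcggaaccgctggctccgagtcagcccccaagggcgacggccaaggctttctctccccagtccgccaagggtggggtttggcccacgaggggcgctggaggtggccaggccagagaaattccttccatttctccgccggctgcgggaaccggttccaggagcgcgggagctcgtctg
The NR4A3 window holds 4 matches to TGACG and 1 to ACGTG, and the match to ACGTG overlaps the last of the TGACG matches. TGACG was in 24.6% of all windows and in 25.5% of the receptor windows, and ACGTG in 21.4% and 21.6%. These are shares of windows with at least 1 match, and how common 4 matches to TGACG are was not looked at. The NR4A1 window holds none of the 3 motifs as spelled here, and other forms of them were not looked for.

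NR2F2 was the best-covered receptor that was higher with knockdown. It encodes COUP-TFII, an orphan receptor that often represses transcription and is known for its part in venous and mesenchymal development. Its main row (NM_021005.3) had 1749 and 3199 counts with knockdown, against 1061 and 1310 in control cells, or 116 and 186 CPM with knockdown, against 67.0 and 81.0 CPM in control cells. The groups did not overlap, and the knockdown libraries differed from each other more than the control libraries did. The mean was 151 ± 50 CPM with knockdown and 74.0 ± 9.91 CPM in control cells (SD, n = 2 each), a log2 fold change of 1.03 ± 0.22 or 2.04-fold (95% confidence interval 0.55 to 1.51, adjusted p = 0.00612).

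The NR2F2 call held in all 11 alternatives, with an adjusted p of 4.83e-10 to 0.0149. The size depended on the knockdown library: the log2 fold change was 1.35 without knockdown replicate 1 and 0.65 without knockdown replicate 2. The authors' deposited table gives 1.05 and a q-value of 1.53e-05. The NR2F2 gene has 3 other rows. The row NM_001145157.1 had 30 and 44 counts with knockdown, against 6 and 21 in control cells, and did not pass (log2 fold change 1.43 ± 0.68, adjusted p = 0.166). The row NM_001145155.1 had 10 and 14 counts with knockdown, against 16 and 3 in control cells (log2 fold change 0.31 ± 0.89), and the difference between the 3 tested rows did not pass (adjusted p = 0.925). The row NM_001145156.1 was removed by the filter. It had 3 and 5 counts with knockdown, against 4 and 20 in control cells. The pooled count ratio was 0.333, with an exact counting interval of 0.129 to 0.765. The groups overlapped, most of the control counts came from control replicate 2, and the interval covers counting error only. An antisense gene, NR2F2-AS1, overlaps the gene span of NR2F2, and its reads in any shared exon cannot be told apart in libraries without strand.

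Its paralogs gave no call. NR2F6 (EAR2), the highest receptor row per length, had 394 and 639 CPM with knockdown, against 381 and 378 CPM in control cells. The first knockdown library was close to the control libraries and the second far above them, and the log2 fold change of 0.45 ± 0.20 did not pass (adjusted p = 0.148). Without knockdown replicate 1 it was 0.77 (adjusted p = 7.58e-05), so the value rests on knockdown replicate 2; over 11 alternatives the adjusted p ran from 7.58e-05 to 0.868. NR2F1 (COUP-TFI) had 11 and 7 counts with knockdown, against 0 and 21 in control cells, and its log2 fold change of -0.20 ± 1.15 turned to 6.20 without control replicate 2, on 0 counts in the control library left.

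The other orphan receptors did not pass either. HNF4G, a member of the hepatocyte nuclear factor 4 family, had 129 and 135 counts with knockdown, against 83 and 72 in control cells, with no overlap (log2 fold change 0.76 ± 0.33, adjusted p = 0.128). ESRRA, a regulator of mitochondrial genes, had 7.87 and 14.3 CPM with knockdown, against 8.08 and 7.36 CPM in control cells (log2 fold change 0.52 ± 0.33, adjusted p = 0.309). NR2C1 (TR2) had 21.4 and 22.1 CPM with knockdown, against 17.1 and 24.9 CPM in control cells (log2 fold change 0.05 ± 0.25, adjusted p = 0.918). NR5A2 (LRH-1), which acts in bile acid synthesis, had 61 and 58 counts with knockdown, against 61 and 53 in control cells (log2 fold change 0.05 ± 0.40). NR2C2 and NR6A1 had 5 to 25 counts a library and log2 fold changes of 0.85 ± 0.85 and 0.15 ± 0.66. In all, the 16 receptors under 10 CPM that did not pass had log2 fold changes of -0.67 to 0.95, 10 of them positive and 6 negative.

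The knockdown libraries differed from each other by GC content. Over 7884 transcripts with a mean of at least 50 counts, the log2 difference of knockdown replicate 2 minus replicate 1 had a median of -0.20 in the fifth with the lowest GC content and 0.23 in the fifth with the highest. The rank correlation with GC content was 0.38 across transcripts, against 0.17 between the 2 control libraries and -0.05 for knockdown minus control. Of the 12 receptors among these transcripts, NR2F6 (71.1% GC), ESRRA (63.2%) and NR0B2 (59.3%) had ratios of knockdown replicate 2 over replicate 1 of 1.62, 1.81 and 1.90. At similar GC content NR1H2 (63.0%), NR4A1 (60.8%) and THRA (60.0%) had ratios of 1.30, 1.29 and 1.23, and NR1D1 (59.5%) had 0.757. NR2F2 had a ratio of 1.61 at a GC content of 49.8%, and the other receptors below 50% GC had ratios from 0.707 for PPARA to 1.03 for NR2C1. The part of GC content in these values was not tested.

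**Figure D4:**
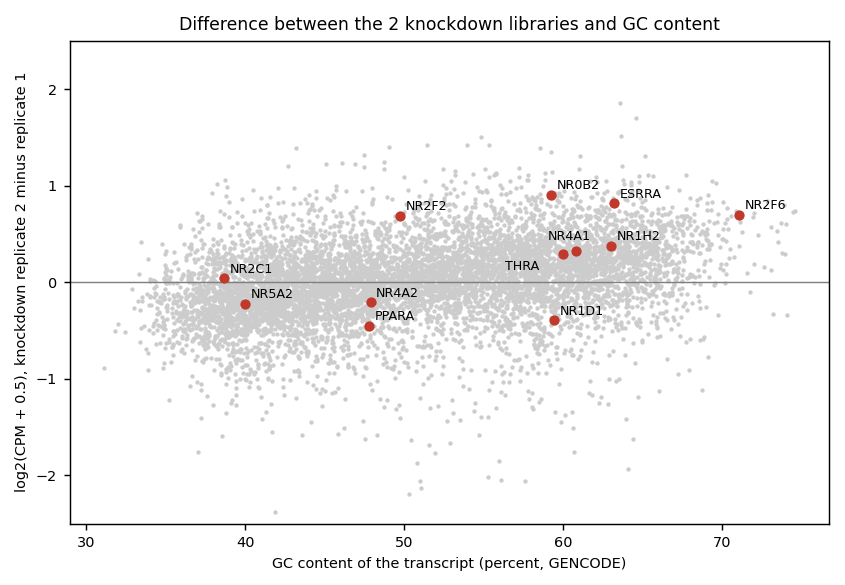
Log2(CPM + 0.5) of knockdown replicate 2 minus replicate 1 against the GC content of the transcript, for 7884 transcripts (grey) and the 12 receptors among them (red); 2 transcripts lie outside the drawn range of 2.5 either side of 0. NR2F6, ESRRA, NR0B2 and NR2F2 lie above 0, and NR1D1, PPARA, NR5A2 and NR4A2 below it.

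Coregulators, through which receptors act on chromatin, were read from textbook lists. The counts called here and in the lists below stand beside the 18.7% of all tested transcripts called, 8.49% as higher and 10.2% as lower. That share was 27.0% for transcripts averaging at least 10 CPM and 11.5% for those under 10 CPM. None of 11 tested coactivators passed edgeR's test in either direction, and their median log2 fold change was 0.35; none passed in DESeq2 or limma-voom, 1 was higher at an unadjusted p under 0.05, and 1 was higher without knockdown replicate 1. The best-covered were EP300, a histone acetyltransferase, with 356 and 341 CPM with knockdown, against 286 and 351 CPM in control cells, and MED1, the receptor-binding subunit of Mediator, with 235 and 201 CPM with knockdown, against 241 and 239 CPM in control cells. Of 8 tested corepressors 2 were higher and 1 was lower. TBL1X, a subunit of the NCOR complex, rose (log2 fold change 1.41 ± 0.28, adjusted p = 0.00376), as did NRIP1, a ligand-dependent corepressor (0.77 ± 0.18, adjusted p = 0.0108). HDAC3, the deacetylase of the NCOR complex, fell (-0.64 ± 0.16, adjusted p = 0.0121). The calls of NRIP1 and HDAC3 were lost without control replicate 1, with adjusted p of 0.0748 and 0.119, and without either knockdown library 2 corepressors were lower. For each coregulator, target or marker named here and below as called, other than those named after their values were seen, the alternatives in which the call was lost are given with their adjusted p; the gene passed in the rest of its 11 alternatives.

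Known target genes of the lipid-sensing receptors moved in both directions. Of 12 tested PPAR-alpha targets 2 were higher, 2 were lower and 8 did not pass; the list's median was 0.04 (log2). PDK4, which holds back pyruvate oxidation, had 98.1 and 40.3 CPM with knockdown, against 27.3 and 10.2 CPM in control cells (1.88 ± 0.42, adjusted p = 0.00769; 0.137 in DESeq2), and FABP1, the liver fatty acid carrier, was higher by 0.76 ± 0.20 (adjusted p = 0.0154; 0.198 without control replicate 1). ANGPTL4, an inhibitor of lipoprotein lipase that hypoxia also induces, had 43.9 and 21.3 CPM with knockdown, against 163 and 181 CPM in control cells (log2 fold change -2.40 ± 0.27). VNN1, a pantetheinase, was also lower (-1.13 ± 0.32, adjusted p = 0.0273), and the call was lost without knockdown replicate 2 (0.13) and without control replicate 2 (0.0988).

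Of 8 tested LXR targets 2 were higher and 1 was lower, with a median of 0.32. The cholesterol exporter ABCA1 had 457 and 400 CPM with knockdown, against 155 and 167 CPM in control cells (1.41 ± 0.16), and FASN, fatty acid synthase, was higher by 0.98 ± 0.17 (adjusted p = 0.00135). SCD, the stearoyl-CoA desaturase, was lower at 10350 and 7125 CPM with knockdown, against 20805 and 17185 CPM in control cells (-1.12 ± 0.17, adjusted p = 0.000782). Of 8 tested genes on the list of FXR and SHP bile acid genes 1 was higher and 1 lower, with a median of 0.63. The lower one, SLC51A, a subunit of a basolateral bile acid exporter that was named after its values were seen, had 5.55 and 3.32 CPM with knockdown, against 10.6 and 19.5 CPM in control cells (-1.77 ± 0.37, adjusted p = 0.00528). The higher one was KNG1, which encodes kininogen, the precursor of bradykinin and not a bile acid enzyme or transporter; it had 49.8 and 55.7 CPM with knockdown, against 26.3 and 35.4 CPM in control cells (0.77 ± 0.22, adjusted p = 0.0247; 0.238 without control replicate 1). Without control replicate 2, 3 genes of this list were higher, and without knockdown replicate 1, 2 were. Of 11 tested PXR and CAR targets 2 were higher, none was lower in edgeR, DESeq2 or limma-voom (2 at an unadjusted p under 0.05), and the median was 0.01. ABCC2, a canalicular exporter, was higher by 1.00 ± 0.17, and UGT1A1, the bilirubin-conjugating enzyme, by 2.57 ± 0.22, although UGT1A1 shares exons with other UGT1A genes and its count is uncertain.

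Of 14 tested glucocorticoid receptor targets 2 were higher and 3 were lower, with a median of -0.01. TAT, tyrosine aminotransferase, had 38.7 and 34.1 CPM with knockdown, against 8.52 and 10.4 CPM in control cells (1.94 ± 0.24), and GADD45B was higher by 0.62 ± 0.18, a call lost without control replicate 2 (adjusted p = 0.288). ERRFI1, an inhibitor of the EGF receptor, was lower (-1.32 ± 0.16), as was the metallothionein MT1X (-3.14 ± 0.29), although near-identical paralogs make the count of MT1X uncertain. Without knockdown replicate 2, 5 of these targets were lower. Of 4 retinoid and vitamin D targets 1 was higher, 1 was lower and 2 did not pass, with a median of 0.02. CYP24A1, which degrades active vitamin D, had 48.9 and 46.7 CPM with knockdown, against 8.52 and 9.15 CPM in control cells (2.43 ± 0.23). DHRS3, a retinal reductase, was lower (-0.58 ± 0.18, adjusted p = 0.0419), a call lost with no filter (0.0546), without knockdown replicate 2 (0.0932), without control replicate 1 (0.0981) and without control replicate 2 (0.266). None of 3 thyroid hormone targets passed in edgeR, DESeq2 or limma-voom, with 1 lower at an unadjusted p under 0.05 and 1 lower without knockdown replicate 1. Among them were ME1 (log2 fold change -0.02 ± 0.16) and KLF9 (0.03 ± 0.19). The remaining target, HR, named after its values were seen, is also on the corepressor list. It had 5 and 1 counts with knockdown, against 18 and 23 in control cells (-2.71 ± 0.94, adjusted p = 0.0618). It passed the filter only through the control libraries.

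Over all tested transcripts 10.2% were called lower and 8.49% higher. Clock genes, whose cycle NR1D1 takes part in, were lower where they passed edgeR's test. Of 13 tested 4 were lower, none was higher and 9 did not pass; the list's median was -0.28 (log2), and without control replicate 1 it was 2 that were lower. At an unadjusted p under 0.05 1 was higher, as was 1 in DESeq2, in limma-voom, under the 5 CPM filter, with rows summed and without any library but control replicate 2. BHLHE41, a repressor of the clock that hypoxia also induces, had 1.98 and 1.11 CPM with knockdown, against 27.1 and 32.2 CPM in control cells (-4.27 ± 0.34). PER1, a core repressor that is also a glucocorticoid target, had 152 and 140 CPM with knockdown, against 416 and 217 CPM in control cells (-1.12 ± 0.24, adjusted p = 0.00649; -0.57 and 0.129 without control replicate 1).

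Liver-enriched transcription factors other than nuclear receptors were read beside them, with 3 higher, none lower and 9 not passed of 12 tested (1 higher without control replicate 1). None was lower in DESeq2, in limma-voom or at an unadjusted p under 0.05. Over all tested transcripts edgeR called 8.49% higher and 10.2% lower. FOXA1, a pioneer factor of liver enhancers, had 78.4 and 163 CPM with knockdown, against 42.4 and 47.5 CPM in control cells (1.43 ± 0.27, adjusted p = 0.00312). PROX1, which interacts with several receptors in hepatocytes, was higher by 0.87 ± 0.28 (adjusted p = 0.0447), a call lost without knockdown replicate 1 (0.117) and without control replicate 1 (0.276). Of the 9 hepatocyte markers FGB (fibrinogen beta chain, 1.19 ± 0.15) and AFP (alpha-fetoprotein, 1.12 ± 0.18) were among 3 that were higher, with APOB (1.11 ± 0.21) the third, and AHSG (fetuin-A, -0.92 ± 0.20; adjusted p = 0.135 without control replicate 2) was the 1 that was lower (2 were lower without knockdown replicate 2). Among the markers of other cell types PECAM1, an endothelial adhesion molecule, was higher (1.02 ± 0.27; adjusted p = 0.137 without control replicate 2), 2 were lower and 8 did not pass. Named after their values were seen, the 2 lower ones were the epithelial markers KRT7 (-1.54 ± 0.44) and EPCAM (-2.25 ± 0.68), both cholangiocyte markers. EPCAM had 11 and 7 counts with knockdown, against 25 and 62 in control cells. Also named after their values were seen, the other cholangiocyte markers, KRT19 (0.37 ± 0.29, adjusted p = 0.425) and SOX9 (-0.36 ± 0.30, adjusted p = 0.449), did not pass. Nor did the endothelial cadherin CDH5 (-0.73 ± 0.67, adjusted p = 0.505). Without knockdown replicate 1, 4 of this list were lower, and without knockdown replicate 2 or control replicate 2, none. The part of these marker changes in the receptor values was not tested.

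**Figure D5:**
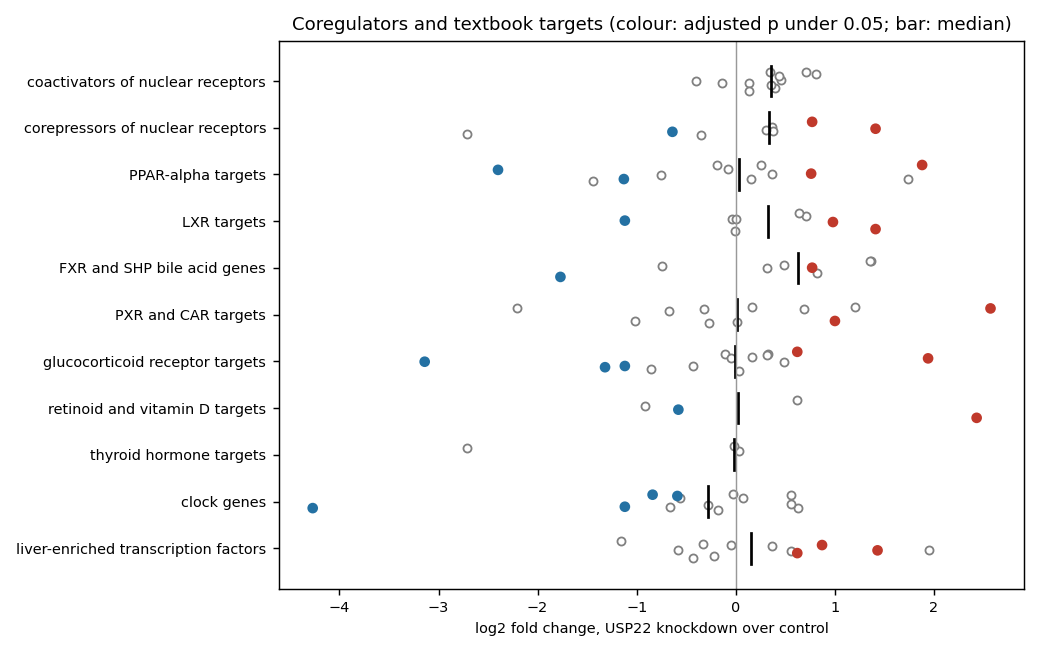
Log2 fold change, USP22 knockdown over control, of each tested gene (points) in the coregulator and target lists, with filled points at an adjusted p under 0.05 (red higher, blue lower) and black bars at the list medians. Medians run from -0.28 for clock genes to 0.63 for FXR and SHP bile acid genes, and no coactivator or thyroid hormone target is filled.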

How the data were processed

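The authors deposited 1 table with raw counts per RefSeq mRNA accession for the 4 libraries, and with a log2 fold change of their own per row and its p-value and q-value; no source used here names the tool behind these. Per the submitters' processing notes, bcl2fastq, HISAT2 2.1.0 and HTSeq were used with build hg19; roles and counting settings are not stated there. Per the labels' protocols the library kit was NEBNext Ultra, which does not keep the strand.

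Counts were filtered with edgeR 4.0.16 (filterByExpr, minimum count 10, 2203 transcripts removed), normalized with TMM (factors 0.979 to 1.015) and fitted without covariates by glmQLFit and glmQLFTest in R 4.3.3, with Benjamini-Hochberg adjustment over 12337 transcripts. The common biological coefficient of variation was 22.1%. The standard error is the log2 fold change divided by the square root of F. The script was tested on simulated data. The spread within a group exceeded counting noise (chi-square per degree of freedom 33.7 for knockdown and 17.9 for control). Counting intervals are exact binomial and, since reads carry no molecular identifiers, cover counting error only. Alternatives used DESeq2 1.42.0 and limma 3.58.1 among others. Length and GC content came from GENCODE, and 98.5% of accessions matched RefSeq.

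The receptors and the further lists were chosen with earlier results of these data known. Values per library were given for receptors that passed or averaged at least 10 CPM; of each further list up to 2 genes per direction were named, those averaging at least 10 CPM and changing most, or the 2 of highest mean where none passed. Values given for receptors under 10 CPM that did not pass, and for further rows, were chosen after they were seen.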

Additional observations from a re-analysis of the deposited data

How the results depend on the processing

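NR2F2 kept its call in all 11 alternatives and NR4A3 in the 10 that gave it a value; NR1H4 did not. Receptors called higher numbered 1 with no filter, 1 under the filter of 5 CPM in 2 libraries and 1 in DESeq2, and those called lower 0 under the 5 CPM filter, which leaves NR1H4, NR4A3 and most other receptors under 10 CPM without a value. Leaving out each library in turn gave 1 to 2 receptors higher and 1 to 2 lower, and 712 to 1314 transcripts higher and 1040 to 1369 lower, against 1047 and 1257 with all 4; the single receptor higher was without control replicate 1, and the 2 lower were without knockdown replicate 1. With the replicate number as a block, 1672 transcripts were higher and 1859 lower, and 4 receptors higher and 3 lower. NR2F6 (0.41, adjusted p = 0.012), NR4A2 (0.47, 0.016), NR1D1 (-0.47, 0.0445) and NR1H2 (-0.47, 0.05, under the threshold before rounding) were added. Same-numbered libraries correlated at 0.11 in their deviations over 2 pairs, so the numbers are not taken as pairs.

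Signs turned for uncalled genes. NR2F1 was 0.47 with the block and 1.45 in limma-voom. PPARA was 0.00 with no filter, 0.01 in DESeq2 and 0.00 with rows summed, and NR3C1 0.14, NR5A2 -0.14 and RARG 0.47 with rows summed. Without 1 library the ranges were -0.41 to 0.52 for NR0B2, -0.19 to 0.35 for NR2C1, -1.19 to 6.20 for NR2F1, -1.14 to 0.04 for NR4A1, -0.06 to 0.19 for NR5A2, -0.29 to 0.52 for NR6A1, -0.26 to 0.23 for PPARA, -0.19 to 0.16 for RARG, -0.35 to 0.95 for RXRA, -0.01 to 0.28 for EP300, -0.13 to 0.22 for KLF9 and -0.13 to 0.11 for ME1. The cause was not tested, and each lone library is assumed to vary like the other group. At 2 libraries a group, the 95% intervals of receptors under 10 CPM reached a median of 1.19 (log2) to either side, against 0.49 for the rest.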
